A study of Mus musculus with 12 samples.

Results

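The interaction of cell line and lipopolysaccharide (LPS) asks whether cells with a DCLK1 knockdown construct answered LPS by the same log2 step as control cells. For each gene the LPS response of control cells was subtracted from the LPS response of shDCLK1 cells. All 12 of the 12 libraries entered, and 11052 of 18190 genes were tested, those at 1 FPKM or more (fragments per kilobase of transcript, scaled to the library's mapped fragments) in at least 3 libraries. At that limit, 6 tested genes had a third-highest value of 1.00 FPKM, and 11 genes with 0.99 FPKM were left out. Among the tested genes, 104 reached 1 FPKM in the 3 libraries of a single group and in no other, and 87 of these were called below. Such genes entered through the group where they were high, which favours a call. The counts below include them, and without them 3556 genes were called higher and 1821 lower among 10948. List members are called measured where they passed this limit.

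Poly(A) RNA of RAW264.7 cells, a mouse macrophage-like line, was sequenced in 4 groups of 3 libraries. shDCLK1 cells stably carried a short hairpin RNA against doublecortin-like kinase 1 and were sampled with LPS (500 ng/ml for 6 h) and untreated. Control cells were sampled with the same LPS dose and time and untreated; the treatment protocol gives them a negative control hairpin, while their own knockdown entry reads none. Each line was monoclonal and plated at 200000 cells per well, so each stands for a single clone, and a property of the clone cannot be told apart from the knockdown. The sources used here do not say whether the 3 libraries of a group came from separate cultures. The p-values therefore rest on the scatter among these libraries, and that scatter may be technical.

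LPS is bound by TLR4 with its co-receptors, and the signal runs along separate adaptor branches. The MyD88 branch reaches the IKK complex, which releases NF-κB to turn on cytokines, chemokines and its own inhibitors. The TRIF branch activates IRF3 and induces interferon beta, which acts back on the same cells through its receptor to switch on interferon-stimulated genes, while macrophages given LPS also leave the cell cycle.

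A difference in response can come about at either end. A gene that starts higher in shDCLK1 cells and reaches the same level with LPS has a smaller step, and so has a gene that starts equal and reaches a lower level. Called genes were therefore sorted by the line difference (shDCLK1 minus control) with LPS and without. They were placed at the LPS level where the line difference with LPS was called and at least 2 times the untreated one in size, and at the untreated level in the converse case. Genes whose line differences were both called, of comparable size and of opposite sign, were placed as reversed. Log2 values below are differences of log2(FPKM + 1), which understate the changes of low genes, SE is the standard error, and p is two-sided from limma with Benjamini-Hochberg adjustment over all 11052 genes. Levels are mean FPKM ± SD with n = 3 libraries.

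The libraries were alike within groups, with FPKM sums of 457695 to 495373 and 10119 to 10619 genes at 1 FPKM or more. Relative depth, read from the value steps of 142 low genes, lay between 0.9746 and 1.014. Pearson's r over the tested genes was 0.993 to 0.996 within groups, 0.977 to 0.986 between lines at the same treatment and 0.806 to 0.866 between treatments of a line. Dclk1, the hairpin's target, was listed at 0 in all shDCLK1 LPS libraries, at 0.01, 0 and 0 FPKM in untreated shDCLK1 libraries, at 0 in all control LPS libraries, and at 0.01, 0.01 and 0 FPKM in untreated control libraries. The knockdown could not be checked at such levels. Among 8 macrophage markers 7 were at 9.26 FPKM or more in every library, and Mertk reached at most 0.12 FPKM. All 8 fibroblast markers and all 5 epithelial markers in the table stayed below 1 FPKM everywhere. Among lymphocyte, neutrophil or mast cell, and adipocyte markers, Pax5, S100a8 and Fabp4 alone reached 1 FPKM, with highest values of 1.3, 4.37 and 2.05 FPKM. The interaction of S100a8 was 0.42 and not called, and Fabp4 passed the limit through shDCLK1 cells with LPS alone. The part of such cells in the results was not tested.

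The interaction was called in 5464 genes, 49.4% of those tested. It was higher in shDCLK1 cells in 3601 (32.6%) and lower in 1863 (16.9%). With a size of at least 1 log2 unit, 191 genes (1.73%) were higher and 219 (1.98%) lower. The median over all genes was 0.09, and the balance of directions depended on the scale. With libraries scaled by the median of ratios, 2539 genes (23%) were called higher and 2616 (23.7%) lower, and with quantile normalization 2710 (24.5%) higher and 2394 (21.7%) lower. Scaling also moved the median response of all genes, which was -0.29 in shDCLK1 cells and -0.38 in control cells as deposited and 0.01 in shDCLK1 cells and 0.00 in control cells after median-of-ratios scaling. The direction of a small response therefore depends on the scale, whereas the interaction moved by about the 0.09 of its median.

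A smaller response in shDCLK1 cells was the most common form. Both responses were called with the same sign and a smaller size in shDCLK1 cells in 3626 genes (32.8%), and with a larger size in 715 genes (6.47%). A further 353 genes (3.19%) responded with a call in shDCLK1 cells alone and 525 (4.75%) in control cells alone, against a background in which 84.6% of all genes were called in the response of shDCLK1 cells and 86.9% in that of control cells. By level, 2057 genes (18.6%) lay at the LPS level, 1692 (15.3%) at the untreated level and 960 (8.69%) were reversed. In the remaining called genes the lines differed to the same side at both levels (147 genes, 1.33%) or the parts could not be sorted (608 genes, 5.50%).

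**Figure D1:**
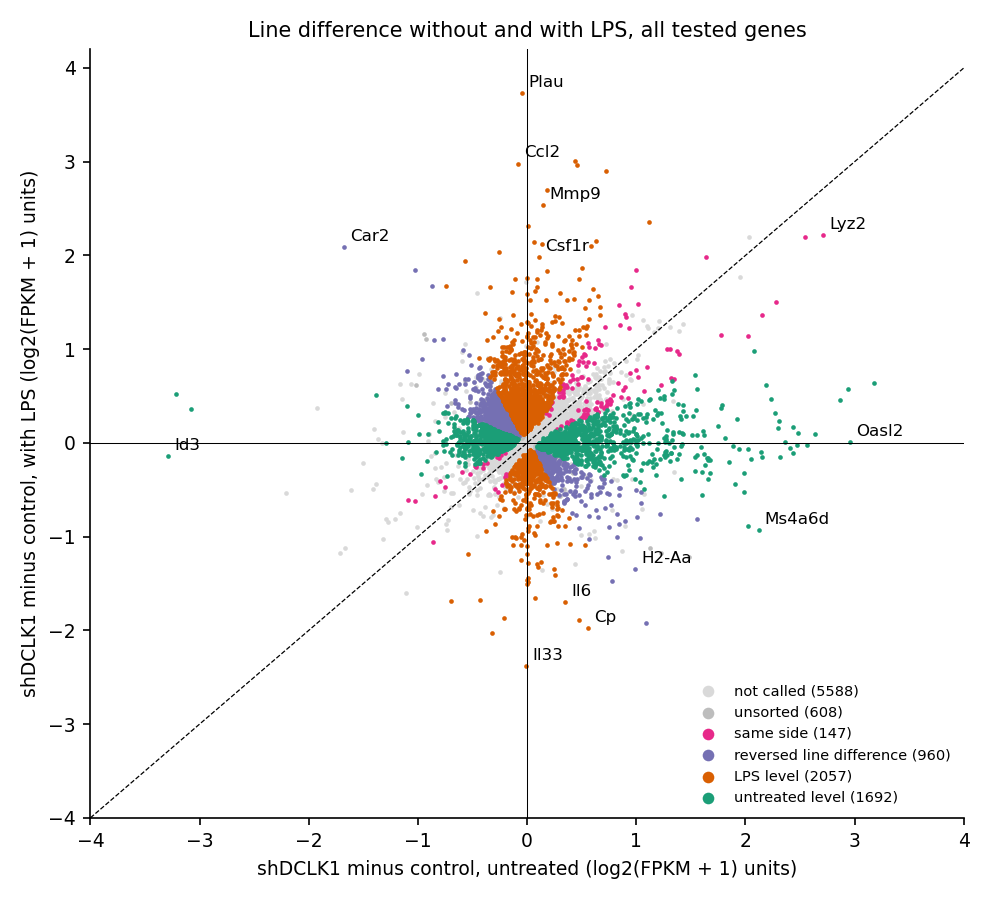
Line difference of each tested gene, shDCLK1 minus control, without LPS (x axis) and with LPS (y axis), in log2(FPKM + 1) units. Colours give the sorting, and genes on the dashed line have no interaction; Oasl2 and Id3 lie along the x axis, Plau and Ccl2 along the upper y axis, and Car2 and H2-Aa in opposite corners.

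Induced and repressed genes differed in where the interaction lay. To keep the choice of genes apart from the interaction, genes were grouped by the average response of both lines. Of 822 genes raised by at least 1 log2 unit on that average, 600 were called (73%, beside 49.4% of all genes). The interaction was higher in 106 and lower in 494, beside 32.6% and 16.9% of all genes. In 255 of the lower ones the interaction lay at the untreated level, with a median line difference of -0.02 with LPS and 0.89 without. In 120 it lay at the LPS level, with a median line difference of -0.61 with LPS and 0.02 without. Of 2005 genes lowered by at least 1 log2 unit, 1431 were called (71.4%, beside 49.4% of all genes), 1311 higher and 120 lower. Among the higher ones 629 lay at the LPS level, with a median line difference of 0.46 with LPS and -0.07 without. Another 325 were reversed, with a median line difference of 0.29 with LPS and -0.28 without, and 214 lay at the untreated level. The form of these medians follows from the sorting rule, so they describe the groups and are not a further result. With median-of-ratios scaling, induced genes split into 89 higher and 542 lower and lowered genes into 1144 higher and 159 lower. Over all genes that scaling gave 23% higher and 23.7% lower.

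**Figure D2:**
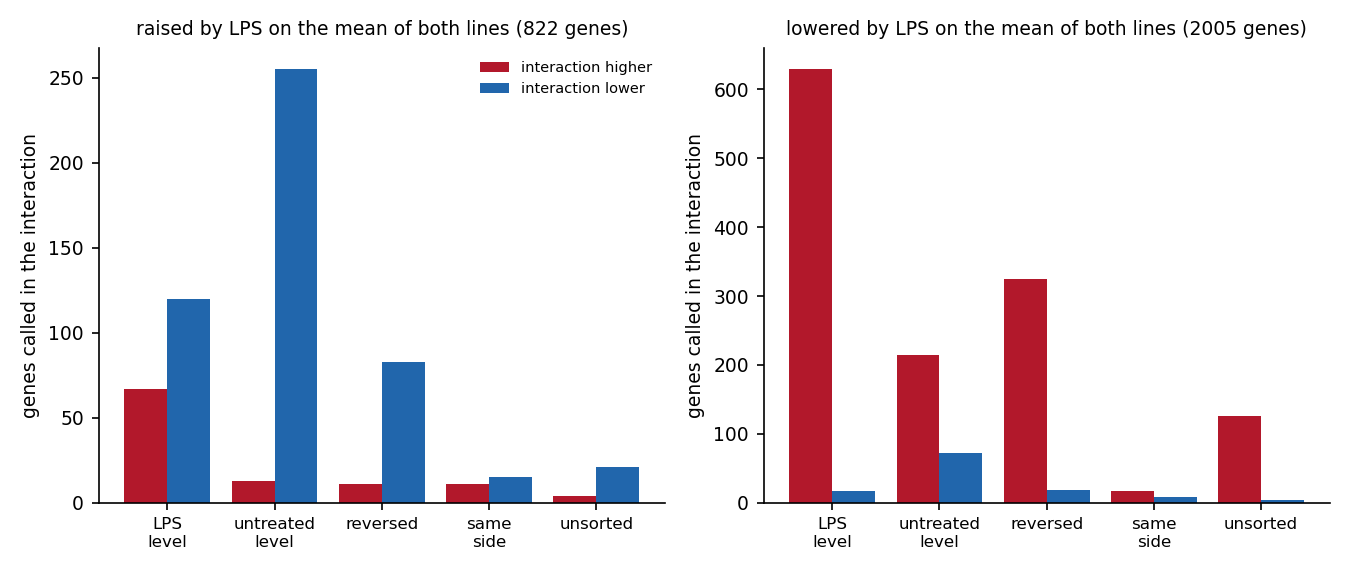
Number of genes called in the interaction (y axes, from 0) by the level where the interaction lay, for genes raised (left) and lowered (right) by LPS on the average of both lines. Red bars are genes with a higher and blue bars genes with a lower interaction in shDCLK1 cells; the tallest blue bar is the 255 induced genes at the untreated level, and the tallest red bar the 629 lowered genes at the LPS level.

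Interferon-stimulated genes made up the clearest group at the untreated level. All 52 measured members of a list of type I interferon response genes were called lower in the interaction, beside 16.9% of all genes, with a median of -1.43 beside 0.09 over all genes. Their median response was 2.40 log2 units in shDCLK1 cells and 4.04 in control cells. The interaction lay at the untreated level in 49 of them and was reversed in 3, beside 15.3% and 8.69% of all genes. The 3 reversed genes were Cxcl10, Gbp5 and Ifi205, with line differences of -0.81, -0.51 and -0.66 with LPS. Untreated, the line difference was called higher in 52 of 52 genes, beside 21.4% of all genes. With LPS it was called higher in 13 and lower in 22, beside 34.3% and 14.3% of all genes. In bulk RNA, fewer responding cells and less RNA per cell cannot be told apart.

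Per library the medians of the 52 genes showed the same order. The median log2(FPKM + 1) was 7.26, 7.32 and 7.28 in the shDCLK1 LPS libraries and 5, 5.08 and 5.04 in the untreated shDCLK1 libraries. It was 7.29, 7.29 and 7.28 in the control LPS libraries and 3.48, 3.55 and 3.54 in the untreated control libraries. The libraries of the lines overlapped with LPS and stood apart without it.

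Oasl2, a 2'-5' oligoadenylate synthetase-like protein that enters the antiviral response, carried the largest interaction of the list. Its level was 224.72, 227.08 and 222.04 FPKM in shDCLK1 LPS libraries and 61.95, 64.67 and 61.62 FPKM in untreated shDCLK1 libraries. In control cells it was 216.76, 221.37 and 229.00 FPKM with LPS and 7.28, 7.40 and 6.91 FPKM untreated. The LPS groups overlapped and the untreated groups did not. The interaction was -2.94 log2 units (SE 0.0452, adjusted p = 4.31e-13).

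Zbp1, a sensor of Z-form nucleic acids, had 253.77, 275.78 and 256.24 FPKM in shDCLK1 cells with LPS and 19.41, 17.77 and 18.75 FPKM in untreated shDCLK1 cells. Control cells had 265.04, 261.93 and 272.08 FPKM with LPS and 2.74, 1.92 and 2.40 FPKM untreated. Again the lines overlapped with LPS and were far apart without it, and the interaction was -2.58 (SE 0.101, adjusted p = 1.47e-09). Regulators and effectors of the pathway also differed mainly without LPS, though Irf7 and Isg15 had lower means in shDCLK1 cells with LPS. Irf7, the transcription factor that amplifies interferon production, was at 756 ± 37.6 FPKM with LPS and 136 ± 6.85 untreated in shDCLK1 cells, and at 850 ± 20.3 with LPS and 32.0 ± 1.35 untreated in control cells (interaction -2.22, adjusted p = 1.04e-10). Isg15, a ubiquitin-like modifier, was at 943 ± 22.8 with LPS and 102 ± 2.63 untreated in shDCLK1 cells, and at 1046 ± 24.7 with LPS and 19.6 ± 1.90 untreated in control cells (interaction -2.47). Ifit3, Mx1 and Rsad2, which restrict viral RNA, assembly or budding, had interactions of -2.49, -2.35 and -2.27. The smallest of the list were Iigp1 (-0.51) and Trim25 (-0.44). Ifit3 shares much sequence with Ifit3b, and Oas1a with Oas1g, so that their reads may have been divided uncertainly.

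The promoters of several of these genes hold the interferon-stimulated response element. Ifit3, Isg15 and Cxcl10 are shown here because their interactions are among the largest of the list members that hold it. Each is the RefSeq window around the gene's start (GRCm38.p6), from 5' to 3' on the gene's strand. Capitals mark matches to the element, searched on both strands as GAAA, any 2 bases, then GAAA. Ifit3 lies at chr19:34583279-34583578 (+ strand), Isg15 at chr4:156200769-156201068 (- strand) and Cxcl10 at chr5:92348840-92349139 (- strand).
Ifit3: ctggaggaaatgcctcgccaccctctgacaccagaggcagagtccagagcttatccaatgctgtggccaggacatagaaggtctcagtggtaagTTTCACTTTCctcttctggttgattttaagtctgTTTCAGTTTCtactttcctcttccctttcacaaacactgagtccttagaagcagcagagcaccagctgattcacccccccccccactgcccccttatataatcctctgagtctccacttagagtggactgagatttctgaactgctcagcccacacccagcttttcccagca
Isg15: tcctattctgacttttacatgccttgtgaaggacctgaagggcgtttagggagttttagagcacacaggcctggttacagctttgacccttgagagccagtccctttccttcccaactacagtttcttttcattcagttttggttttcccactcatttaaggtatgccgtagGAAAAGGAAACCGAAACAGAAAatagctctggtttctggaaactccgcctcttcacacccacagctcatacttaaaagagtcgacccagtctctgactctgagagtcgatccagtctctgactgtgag
Cxcl10: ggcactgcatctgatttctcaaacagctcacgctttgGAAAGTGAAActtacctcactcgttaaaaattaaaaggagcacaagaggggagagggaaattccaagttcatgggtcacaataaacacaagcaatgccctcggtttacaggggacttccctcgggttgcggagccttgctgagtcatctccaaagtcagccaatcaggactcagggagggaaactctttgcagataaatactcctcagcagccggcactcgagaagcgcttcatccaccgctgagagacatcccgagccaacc
Overlapping matches in Isg15 form a single run of capitals. The first bases of the matches stood at -156 and -122 from the start in Ifit3, at -78, -72 and -66 in Isg15 and at -213 in Cxcl10. Of the 40 list members with a window, 25 (62.5%) held the element. It was found in 10.9% of the 676 genes with a window that were lower in the interaction at the untreated level, in 8.74% of the 206 that were lower and reversed, in 2.73% of the 1244 that were higher at the LPS level, and in 4.11% of the 8733 tested genes with a window. The window of Oasl2, which had the largest interaction of the list, held no match. A match describes the letters and is not a binding site.

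Genes outside the interferon list lay at the untreated level as well. Lilrb4a, an inhibitory receptor of myeloid cells, had 1004, 968.36 and 954.51 FPKM in shDCLK1 cells with LPS and 86.88, 93.00 and 89.83 FPKM in untreated shDCLK1 cells. Control cells had 905.88, 918.05 and 928.68 FPKM with LPS and 12.87, 13.16 and 14.75 FPKM untreated, and the interaction was -2.55 (SE 0.0620, adjusted p = 2.42e-11). The membrane proteins Ms4a6d and Ms4a6c, close relatives whose reads may be divided uncertainly, had interactions of -3.05 (SE 0.176, adjusted p = 4.27e-08) and -2.91 (SE 0.116, adjusted p = 1.81e-09). Ms4a6d was at 8.07 ± 1.52 FPKM with LPS and 4.34 ± 0.323 untreated in shDCLK1 cells, and at 16.1 ± 1.66 with LPS and 0.233 ± 0.159 untreated in control cells. With a pseudocount of 0.1 in place of 1 the interaction of Ms4a6d was -4.88. Ms4a6c responded by 0.04 log2 units in shDCLK1 cells (adjusted p = 0.691) and by 2.94 in control cells.

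**Figure D3:**
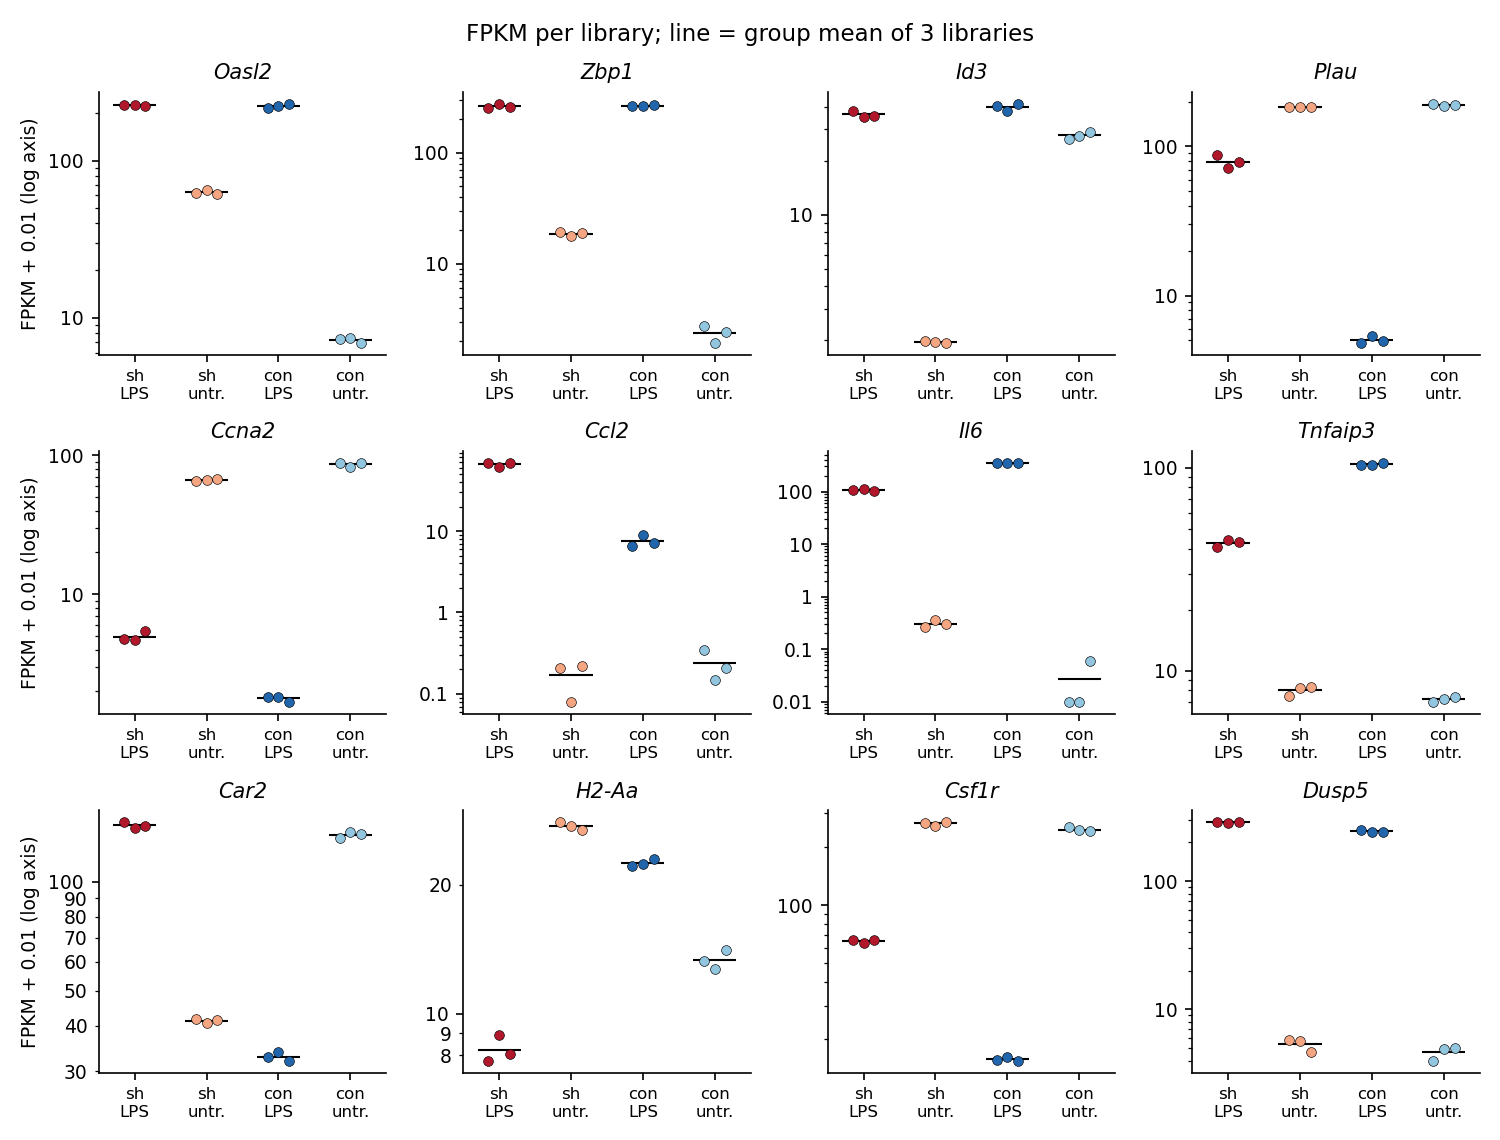
FPKM plus 0.01 of 12 genes in each library on a logarithmic axis of its own range per gene, with a line at the group mean of 3 libraries. From left to right the groups are shDCLK1 with LPS, shDCLK1 untreated, control with LPS and control untreated; the LPS groups meet for Oasl2, Zbp1 and Id3, the untreated groups are close for Plau, Tnfaip3 and Csf1r, and Car2 and H2-Aa change in opposite directions.

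In the other direction at the untreated level, Id3 had the largest interaction among the genes named. Id3 binds helix-loop-helix transcription factors and keeps them off DNA. It was at 38.07, 35.09 and 35.69 FPKM in shDCLK1 cells with LPS and at 1.97, 1.94 and 1.93 FPKM in untreated shDCLK1 cells. Control cells had 40.32, 38 and 41.52 FPKM with LPS and 26.49, 27.67 and 29.12 FPKM untreated. Untreated shDCLK1 cells alone were low, and the lines were close with LPS (line difference -0.14, adjusted p = 0.0249). The interaction was 3.15 (SE 0.0632, adjusted p = 5.90e-12).

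The next genes of this kind had interactions of 1.04 to 1.49. The receptor gene Cd300lf was at 13.8 ± 2.33 FPKM with LPS and 2.30 ± 0.187 untreated in shDCLK1 cells, and at 10.2 ± 0.527 with LPS and 6.04 ± 0.305 untreated in control cells (interaction 1.49, SE 0.133, adjusted p = 2.05e-06). The tyrosine kinase Syk, which signals below immunoreceptors, was at 8.03 ± 0.669 with LPS and 3.55 ± 0.227 untreated in shDCLK1 cells, and at 6.17 ± 0.278 with LPS and 6.67 ± 0.471 untreated in control cells (interaction 1.08, adjusted p = 1.33e-06). Only shDCLK1 cells had a called response of Syk, 0.99 log2 units, while that of control cells was -0.10 (adjusted p = 0.179). Traf4, a TRAF-family adaptor, fell by 1.15 log2 units in shDCLK1 cells and by 2.19 in control cells, where its untreated level was higher. Tmem181a (interaction 1.29) has a near-identical copy in the genome, and its value is uncertain for that reason.

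Proliferation genes formed the clearest group at the LPS level. LPS lowered them in both lines, as it did 59.7% of all genes in shDCLK1 cells and 62.1% in control cells, and they fell less far in shDCLK1 cells. Of 46 DNA replication and mitosis genes, 45 were called higher in the interaction, beside 32.6% of all genes, and 0 lower, with a median of 0.95. The median response was -2.41 log2 units in shDCLK1 cells and -3.27 in control cells. The interaction lay at the LPS level in 36 and was reversed in 9, beside 18.6% and 8.69% of all genes. With LPS the line difference was called higher in 45 of 46 genes, beside 34.3% of all genes. Untreated, it was called lower in 31 and higher in 1, beside 23.6% and 21.4% of all genes. Tyms, the thymidylate synthase, was not called (0.17, adjusted p = 0.0871). After median-of-ratios scaling 45 were called higher as well, beside 23% of all genes.

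The per-library medians of these 46 genes were 2.70, 2.75 and 2.73 in shDCLK1 cells with LPS and 5.59, 5.52 and 5.56 in untreated shDCLK1 cells, on the log2(FPKM + 1) scale. In control cells they were 1.73, 1.92 and 1.90 with LPS and 5.68, 5.69 and 5.72 untreated. The groups did not overlap at either level, and the gap was wider with LPS. Ccna2, the cyclin of S and G2 phase, had 4.74, 4.64 and 5.40 FPKM in shDCLK1 cells with LPS and 65.64, 66.39 and 68.03 FPKM in untreated shDCLK1 cells. Control cells had 1.81, 1.82 and 1.67 FPKM with LPS and 87.72, 83.19 and 88.25 FPKM untreated (interaction 1.47, SE 0.0676, adjusted p = 5.88e-09). Ccna2 was thus higher in shDCLK1 cells with LPS and lower in them untreated.

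Mcm7, a subunit of the replicative helicase, was at 12.9 ± 0.201 FPKM with LPS and 83.1 ± 1.96 untreated in shDCLK1 cells, and at 5.09 ± 0.110 with LPS and 100 ± 0.779 untreated in control cells (interaction 1.46, adjusted p = 8.72e-11). Birc5, which guides chromosome segregation, was at 4.91 ± 0.636 with LPS and 62.3 ± 0.786 untreated in shDCLK1 cells, and at 1.69 ± 0.192 with LPS and 77.4 ± 1.38 untreated in control cells (interaction 1.44). The kinetochore genes Cenpf and Cenpe had 1.47 and 1.34, and Cenpf 2.27 with a pseudocount of 0.1. The mitotic kinase Plk1 had 1.22, its partners Ccnb1 and Ccnb2 1.20 each, and the mitotic driver Cdk1 0.85. E2f1, a transcription factor of S-phase genes, had 0.92 and its repressive relative E2f8 1.04. The smallest called interactions were those of the replication factors Rfc3 (0.33) and Pcna (0.21).

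The E2F motif TTTCCCGC, searched on both strands, was present in 4 of the 35 list members with a window (11.4%) and in 2.67% of the tested genes with a window. Mcm7 is shown because it had the largest interaction among these matches, at chr5:138171834-138172133 (- strand, GRCm38.p6, RefSeq), with the motif in capitals and its first base at -165.
Mcm7: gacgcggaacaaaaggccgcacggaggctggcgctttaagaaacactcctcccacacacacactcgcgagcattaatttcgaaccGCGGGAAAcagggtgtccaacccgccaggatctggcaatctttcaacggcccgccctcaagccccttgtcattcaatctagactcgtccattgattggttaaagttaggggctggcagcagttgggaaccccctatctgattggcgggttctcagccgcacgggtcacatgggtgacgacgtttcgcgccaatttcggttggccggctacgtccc
The motif was in 3.54% of the genes with a window that were higher at the LPS level, in 3.72% of those higher at the untreated level and in 3.74% of those higher and reversed. It was in 1.24% of those lower at the LPS level.

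The largest interaction of all tested genes was that of Plau, the urokinase plasminogen activator. It was at 87.25, 71.85 and 78.54 FPKM in shDCLK1 cells with LPS and at 184.62, 182.63 and 182.82 FPKM in untreated shDCLK1 cells. Control cells had 4.81, 5.36 and 4.91 FPKM with LPS and 192.84, 185.62 and 189.76 FPKM untreated. The untreated line difference was -0.05 (adjusted p = 0.534) and that with LPS 3.73 (interaction 3.78, SE 0.0800, adjusted p = 7.59e-12). Csf1r, the receptor for the macrophage growth factor CSF1, followed the same form. It was at 65.39, 63.69 and 65.61 FPKM in shDCLK1 cells with LPS and at 267.23, 259.05 and 270.37 FPKM in untreated shDCLK1 cells. Control cells had 15.62, 16.20 and 15.47 FPKM with LPS and 253.91, 244.33 and 242.26 FPKM untreated (interaction 1.87, SE 0.0412, adjusted p = 9.83e-12). Dmpk, a kinase named for myotonic dystrophy, was at 3.09 ± 0.355 FPKM with LPS and 7.30 ± 0.215 untreated in shDCLK1 cells, and at 0.287 ± 0.00577 with LPS and 12.8 ± 0.728 untreated in control cells. Its interaction was 2.40 (SE 0.0906), and 3.85 with a pseudocount of 0.1.

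Other genes at the LPS level rose further in shDCLK1 cells. Scin, an actin-severing protein, was at 36.91, 29.36 and 34.18 FPKM in shDCLK1 cells with LPS and at 3.36, 3.38 and 3.70 FPKM in untreated shDCLK1 cells. Control cells had 3.43, 3.26 and 3.51 FPKM with LPS and 2.32, 2.44 and 2.01 FPKM untreated (interaction 2.5, SE 0.108, adjusted p = 3.51e-09). Mustn1, a small nuclear protein of muscle and bone, was at 14 ± 0.858 FPKM with LPS and 0.907 ± 0.240 untreated in shDCLK1 cells, and at 0.867 ± 0.137 with LPS and 0.413 ± 0.230 untreated in control cells (interaction 2.57, adjusted p = 1.35e-07). Both genes were high in shDCLK1 cells with LPS and low in the other 3 groups. Outside that group Mustn1 reached 1 FPKM only in the third untreated shDCLK1 library (1.18 FPKM). Mustn1 thus entered through the group where it was high, which favours its call. Mmp9, a gelatinase, was at 17.8 ± 3.09 FPKM with LPS and 0.263 ± 0.0603 untreated in shDCLK1 cells, and at 2.22 ± 0.351 with LPS and 0.140 ± 0.0173 untreated in control cells (interaction 2.40).

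Mmp9 is also an osteoclast marker, and RAW264.7 cells can form osteoclasts. Of 7 measured osteoclast markers, 6 were called higher in the interaction and 0 lower, beside 32.6% and 16.9% of all genes, with a median of 0.87. Nfatc1, the transcription factor that drives osteoclast formation, was at 50.7 ± 1.29 FPKM with LPS and 38 ± 1.41 untreated in shDCLK1 cells, and at 10.9 ± 0.470 with LPS and 34.4 ± 0.919 untreated in control cells (interaction 1.98, adjusted p = 8.72e-11). Acp5, the tartrate-resistant acid phosphatase, was at 12.2 ± 0.746 with LPS and 1.32 ± 0.170 untreated in shDCLK1 cells, and at 2.63 ± 0.387 with LPS and 0.640 ± 0.0900 untreated in control cells (interaction 1.37). Tnfrsf11a, which encodes RANK, was not called (-0.04). The summed FPKM of the 9 markers in the table was 130 to 141 in shDCLK1 cells with LPS, 96.3 to 102 in untreated shDCLK1 cells, 52.7 to 54.7 in control cells with LPS and 83.4 to 89.5 in untreated control cells. The part of an osteoclast-like share of cells in any other result was not tested. Of 5 dendritic cell markers 3 were called lower (Ccr7, Siglech and Xcr1) and 0 higher, beside 16.9% of all genes lower and 32.6% higher. The interaction of Ccr7, a homing receptor, was -1.03, or -1.59 with a pseudocount of 0.1.

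The NF-κB arm also differed at the LPS level, in the lower direction. Of 17 NF-κB subunits and inhibitors of the IκB and A20 families, 10 were called lower in the interaction and 0 higher, beside 16.9% of all genes lower and 32.6% higher, with a median of -0.41. The LPS level held 7 of the 17, beside 18.6% of all genes. With LPS the line difference was called lower in 12 of 17 and higher in 2, beside 14.3% and 34.3% of all genes. Tnfaip3, which encodes A20, an enzyme that edits ubiquitin and shuts the pathway off, had 40.86, 43.83 and 42.83 FPKM in shDCLK1 cells with LPS and 7.49, 8.15 and 8.25 FPKM in untreated shDCLK1 cells. Control cells had 103.37, 103.23 and 105.71 FPKM with LPS and 7.00, 7.24 and 7.40 FPKM untreated (interaction -1.40, SE 0.0557, adjusted p = 1.81e-09). The lines were near each other before LPS and far apart after it.

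Among the others, Bcl3, a nuclear IκB protein, was at 45.2 ± 4.35 FPKM with LPS and 11.3 ± 0.330 untreated in shDCLK1 cells, and at 114 ± 2.84 with LPS and 10.5 ± 0.505 untreated in control cells (interaction -1.41, adjusted p = 4.72e-08). Nfkbia, the classical inhibitor IκBα, was at 357 ± 11.5 with LPS and 80.6 ± 0.325 untreated in shDCLK1 cells, and at 578 ± 3.34 with LPS and 93.1 ± 1.83 untreated in control cells (interaction -0.49). Nfkbiz, a further nuclear IκB protein, had -1.17 and Tnip3, a partner of A20, -1.07. The subunit genes Nfkb1, Nfkb2 and Rel had -0.43, -0.46 and -0.41. Rela and Relb were not called, at -0.11 (adjusted p = 0.157) and 0.02 (adjusted p = 0.817), and neither were Nfkbie, Otulin, Tnip1, Tnip2 and Cyld. After median-of-ratios scaling 13 of the 17 were called lower and 0 higher, beside 23.7% of all genes lower and 23% higher.

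Ikbkb encodes IKKβ, the kinase named beside DCLK1 in the study's title. It had 19.48, 20.01 and 19.02 FPKM in shDCLK1 cells with LPS and 22.71, 22.14 and 23 FPKM in untreated shDCLK1 cells. Control cells had 19.32, 19.66 and 18.75 FPKM with LPS and 24.35, 25.85 and 23.93 FPKM untreated. The LPS groups overlapped, and the untreated shDCLK1 libraries lay below the control ones. The interaction was 0.14 (SE 0.0507, adjusted p = 0.0367). The call was lost after median-of-ratios scaling (0.05, adjusted p = 0.455), after quantile normalization (0.08, adjusted p = 0.216) and without any of 7 single libraries (adjusted p = 0.0525 to 0.0885).

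Promoters of the NF-κB list held the NF-κB motif, searched on both strands as GGG, any 2 bases, then TTTCC, in 5 of 14 members with a window (35.7%), beside 2.06% of the tested genes with a window. Among 15 cytokines with a window 3 held it (20%), and among 10 chemokines 3 (30%). Tnfaip3 and Il6 are shown since both differed at the LPS level, at chr10:19015361-19015660 (- strand) and chr5:30012864-30013163 (+ strand), from RefSeq on GRCm38.p6 with the motif in capitals, its first base at -12 in Tnfaip3 and -44 in Il6.
Tnfaip3: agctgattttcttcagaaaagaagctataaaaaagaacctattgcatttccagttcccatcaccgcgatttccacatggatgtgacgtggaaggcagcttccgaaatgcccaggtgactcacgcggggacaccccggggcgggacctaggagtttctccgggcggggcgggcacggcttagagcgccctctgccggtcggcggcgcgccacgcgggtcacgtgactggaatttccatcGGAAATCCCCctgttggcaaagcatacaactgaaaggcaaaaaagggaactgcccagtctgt
Il6: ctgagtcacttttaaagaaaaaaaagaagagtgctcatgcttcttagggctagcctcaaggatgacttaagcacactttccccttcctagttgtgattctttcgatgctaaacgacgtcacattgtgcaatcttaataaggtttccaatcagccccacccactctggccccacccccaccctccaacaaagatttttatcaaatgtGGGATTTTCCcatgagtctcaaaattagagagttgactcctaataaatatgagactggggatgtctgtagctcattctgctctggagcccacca
A second window of Tnfaip3, at another annotated start, held no match to these letters.

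Cytokine genes were mostly lower in the interaction, with exceptions. Of 22 measured, 13 were called lower and 3 higher, beside 16.9% of all genes lower and 32.6% higher, with a median of -0.44. The LPS level held 9, beside 18.6% of all genes. Il6 was at 104.92, 111.25 and 101.65 FPKM in shDCLK1 cells with LPS and at 0.25, 0.35 and 0.29 FPKM in untreated shDCLK1 cells. Control cells had 341.00, 349.28 and 347.88 FPKM with LPS, and untreated Il6 was listed at 0 in the first and the second library and at 0.05 FPKM in the third. The interaction was -2.05 (SE 0.0595, adjusted p = 1.04e-10), and -3.49 with a pseudocount of 0.1, which gives weight to the untreated traces. Il33, an alarmin of the interleukin-1 family, was at 14.50, 18.06 and 14.68 FPKM in shDCLK1 cells with LPS and at most 0.02 FPKM in untreated shDCLK1 libraries. Control cells had 86.85, 87.43 and 83.08 FPKM with LPS and at most 0.06 FPKM untreated (interaction -2.37, SE 0.0986, adjusted p = 2.58e-09).

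Il27, Il12b and Il10, which steer T cell answers, had interactions of -1.59, -0.95 and -0.79. Tnf was nearly equal in the lines, at 501 ± 35.1 FPKM with LPS and 53.6 ± 0.894 untreated in shDCLK1 cells, and at 532 ± 4.75 with LPS and 46.4 ± 1.53 untreated in control cells (interaction -0.29, adjusted p = 0.00164). Il1b was not called (-0.60, SE 0.246, adjusted p = 0.0610), with 1187 ± 18.5 FPKM in shDCLK1 cells with LPS and 1156 ± 34.1 in control cells with LPS. Its untreated means were 1.06 FPKM in shDCLK1 cells and 0.347 FPKM in control cells. The growth factor Csf3 (G-CSF) went the other way, with 283 ± 38.6 FPKM with LPS and 0.173 ± 0.101 untreated in shDCLK1 cells, and 125 ± 3.34 with LPS and 0.0400 ± 0.0693 untreated in control cells (interaction 0.99, adjusted p = 4.04e-05). Its untreated means lay well below the pseudocount of 1, so the interaction of Csf3 depends on that choice. Osm and Tgfb1 were the other 2 called higher, at 0.50 and 0.33.

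Chemokine genes were called in both directions. Of 17 measured, 4 (Ccl6, Ccl7, Ccl24 and Cxcl3) passed the limit through shDCLK1 cells with LPS alone, where they are high, and their higher calls are not read here. Of the other 13, 9 were called lower and 2 higher, beside 16.9% of all genes lower and 32.6% higher. Ccl2, which recruits monocytes through CCR2, had 68.56, 61.01 and 68.36 FPKM in shDCLK1 cells with LPS and 0.20, 0.07 and 0.21 FPKM in untreated shDCLK1 cells. Control cells had 6.47, 9.05 and 7.05 FPKM with LPS and 0.34, 0.14 and 0.20 FPKM untreated (interaction 3.06, SE 0.146, adjusted p = 7.87e-09). Ccl7, also a CCR2 ligand, is among the 4 that entered through that group, so its values add no support to those of Ccl2. Ccl7 was listed at 0 in all untreated libraries. It was at 3.44 ± 0.806 FPKM in shDCLK1 cells with LPS and 0.300 ± 0.0600 in control cells with LPS. Cxcl14 was the other chemokine called higher (interaction 0.78), with a line difference of 1.21 with LPS.

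Other chemokines went the other way. Ccl3 was at 6222 ± 157 FPKM with LPS and 148 ± 2.11 untreated in shDCLK1 cells, and at 9218 ± 471 with LPS and 61.7 ± 4.46 untreated in control cells (interaction -1.82, adjusted p = 1.15e-09). Ccl4 had -2.16 and Ccl5 -2.05, the second with a wide SE of 0.373. Cxcl10, a CXCR3 ligand on the interferon list too, had 350.83, 410.80 and 380.20 FPKM in shDCLK1 cells with LPS and 21.98, 21.71 and 22.56 FPKM in untreated shDCLK1 cells. Control cells had 636.86, 691.55 and 672.95 FPKM with LPS and 7.46, 5.86 and 7.34 FPKM untreated (interaction -2.37, SE 0.105, adjusted p = 4.27e-09). The order of the lines for Cxcl10 was thus opposite at the 2 levels. Cx3cl1 and Ccl17 were not called (-0.15 and 0.34).

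**Figure D4:**
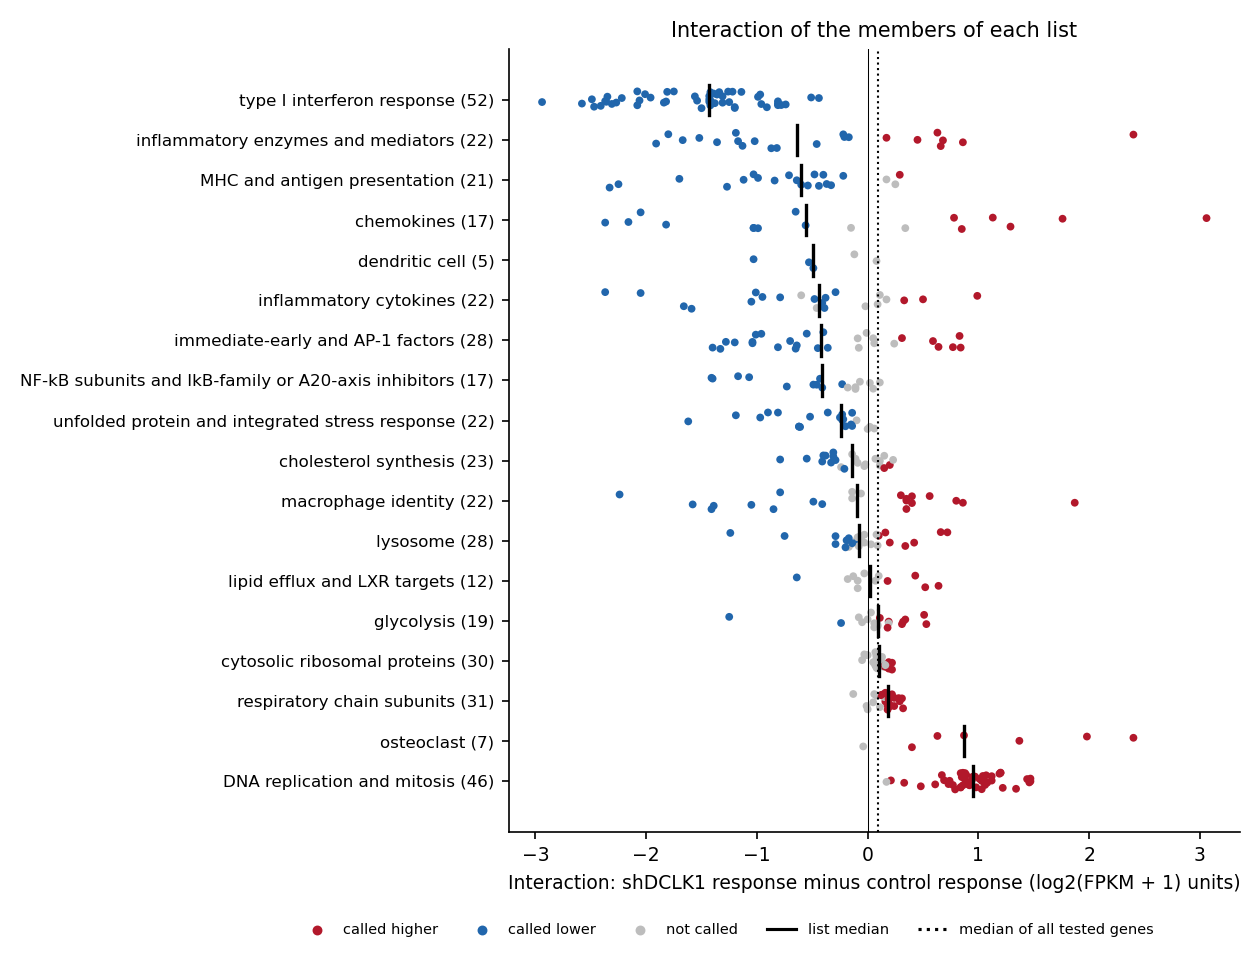
Interaction of each measured member of each gene list with at least 5 measured members (x axis, log2(FPKM + 1) units), lists ordered by their median and with the number of members in brackets. Red points were called higher, blue points called lower and grey points not called; black bars are list medians, those of chemokines and of inflammatory enzymes including members that passed the limit through 1 group, and the dotted line the median of all tested genes, 0.09. The interferon list lies wholly below 0 and the replication and mitosis list wholly above.

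Among other genes that shDCLK1 cells induced less at the LPS level, Cp, which encodes the copper oxidase ceruloplasmin, had 14.80, 19.85 and 17.22 FPKM in shDCLK1 cells with LPS and 2.48, 2.90 and 2.87 FPKM in untreated shDCLK1 cells. Control cells had 71.09, 71.01 and 69.61 FPKM with LPS and 1.32, 1.63 and 1.70 FPKM untreated (interaction -2.54, SE 0.125, adjusted p = 1.07e-08). Avil, an actin regulator of the villin family, varied among the shDCLK1 LPS libraries, at 7.14, 3.53 and 5 FPKM, and was at 0.893 ± 0.164 FPKM in untreated shDCLK1 cells. Control cells had 20.75, 21.41 and 22.22 FPKM with LPS and 0.357 ± 0.0404 untreated (interaction -2.37, SE 0.218, adjusted p = 2.56e-06). Marcks, which tethers actin to the membrane, was at 2.39 ± 0.130 FPKM with LPS and 0.137 ± 0.0115 untreated in shDCLK1 cells, and at 9.64 ± 0.205 with LPS and 0.0867 ± 0.0503 untreated in control cells (interaction -1.72, adjusted p = 1.19e-08). For all 3 genes the LPS groups of the lines did not overlap.

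The stress response list leaned the same way. Of 22 genes of the unfolded protein and integrated stress responses, 18 were called lower and 0 higher, beside 16.9% of all genes lower and 32.6% higher, with a median of -0.24. The LPS level held 13, beside 18.6% of all genes. With LPS the line difference was called lower in 18 of 22 and higher in 0, beside 14.3% and 34.3% of all genes. Trib3, a pseudokinase that ATF4 induces, had 5.78, 6.37 and 6.83 FPKM in shDCLK1 cells with LPS and 60.11, 57.82 and 58.27 FPKM in untreated shDCLK1 cells. Control cells had 14.09, 14.01 and 15.68 FPKM with LPS and 38.29, 41.61 and 41.55 FPKM untreated (interaction -1.62, SE 0.0802, adjusted p = 1.12e-08). Atf4 itself, the transcription factor of the integrated branch, was at 197 ± 20.3 FPKM with LPS and 275 ± 3.02 untreated in shDCLK1 cells, and at 279 ± 3.40 with LPS and 222 ± 1.43 untreated in control cells (interaction -0.81, adjusted p = 2.49e-06). Chaperones of the endoplasmic reticulum moved less, with -0.25 for Hspa5, -0.22 for Hsp90b1 and -0.14 for Calr.

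Some genes responded in opposite directions. A total of 111 rose in shDCLK1 cells and fell in control cells (1.00% of the tested genes), and 121 fell in shDCLK1 cells and rose in control cells (1.09%). Most were small and depended on the scale. Of the 111, 18 were also opposite in direction after median-of-ratios scaling, 35 after quantile normalization and 16 after both. Of the 121, 32 were also opposite after median-of-ratios scaling, 41 after quantile normalization and 27 after both. Where both responses were at least 0.5 log2 units in size, 7 genes rose in shDCLK1 cells and fell in control cells and 14 fell in shDCLK1 cells and rose in control cells. These 7 and 14 kept opposite signs after both scalings. For median-of-ratios scaling the size limit set this outcome in advance, since that scaling moved responses by less than 0.5 log2 units.

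**Figure D5:**
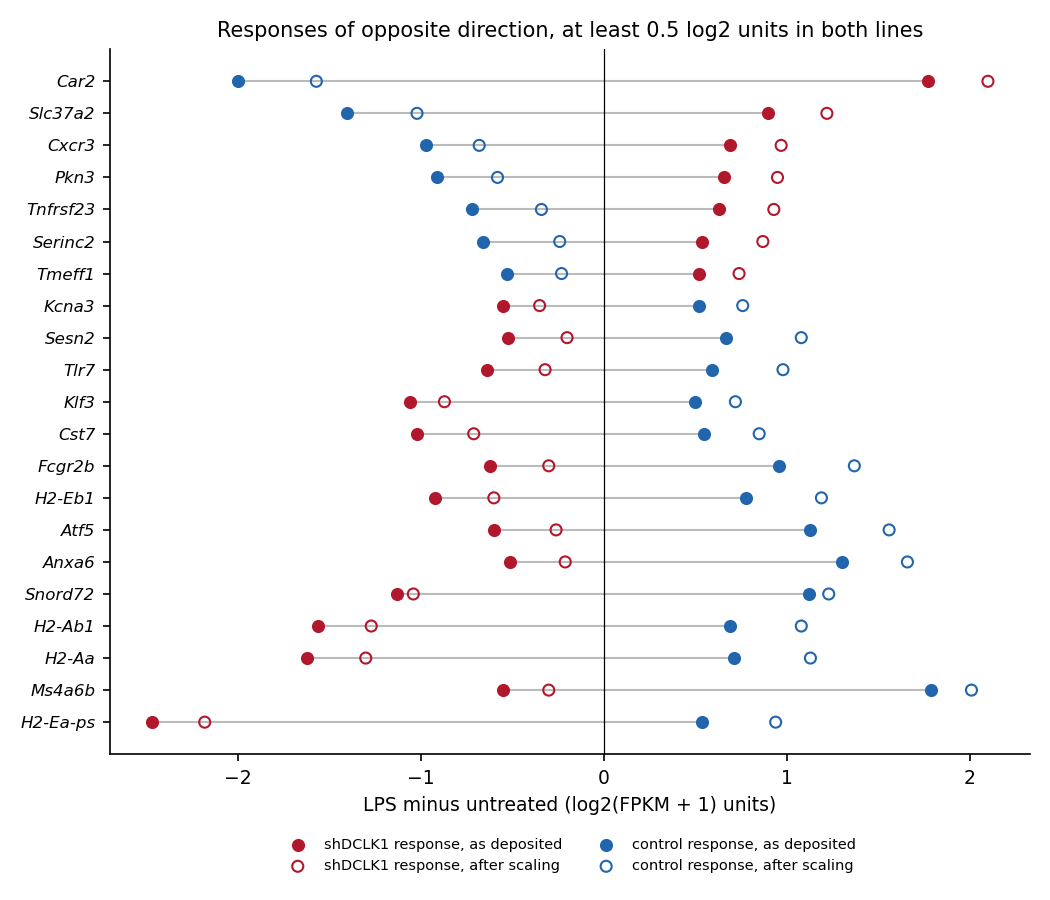
LPS response (x axis, log2(FPKM + 1) units) of the 21 genes whose called responses had opposite signs and a size of at least 0.5 in both lines, in shDCLK1 cells (red) and control cells (blue). Filled points are values as deposited and open points values after median-of-ratios scaling. Scaling shifts both lines upward by similar steps of less than 0.5, so under this size limit no point could change sides of 0.

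Car2, carbonic anhydrase 2, was the largest of the first kind. It had 146.04, 140.53 and 142.68 FPKM in shDCLK1 cells with LPS and 41.82, 40.61 and 41.54 FPKM in untreated shDCLK1 cells. Control cells had 32.69, 33.82 and 32.00 FPKM with LPS and 131.88, 136.70 and 135.08 FPKM untreated. The lines exchanged places almost exactly. The response was 1.77 log2 units in shDCLK1 cells and -2 in control cells, and the interaction 3.77 (SE 0.0403, adjusted p = 1.72e-14).

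Slc37a2, a sugar phosphate carrier of the endoplasmic reticulum, had 28.67, 22.43 and 25.06 FPKM in shDCLK1 cells with LPS and 13.07, 12.56 and 13.68 FPKM in untreated shDCLK1 cells. Control cells had 4.18, 4.32 and 4.41 FPKM with LPS and 12.87, 13.02 and 13.11 FPKM untreated (interaction 2.30, SE 0.0950, adjusted p = 2.48e-09). The untreated lines overlapped. Cxcr3, the receptor for Cxcl10, rose by 0.69 log2 units in shDCLK1 cells and fell by 0.97 in control cells (interaction 1.65). The kinase Pkn3 rose by 0.66 in shDCLK1 cells and fell by 0.91 in control cells (interaction 1.57), and the decoy receptor Tnfrsf23 rose by 0.63 in shDCLK1 cells and fell by 0.72 in control cells (interaction 1.35). Serinc2 and Tmeff1 were the last of the 7. Under this size limit, Dmwd, which lies beside Dmpk on chromosome 7, rose by 0.48 log2 units in shDCLK1 cells and fell by 2.39 in control cells, with an interaction of 2.86 (SE 0.102, adjusted p = 6.34e-10). Raet1a, a ligand of the NKG2D receptor with close copies that may share its reads, was at 26.9 ± 1.29 FPKM with LPS and 24.6 ± 1.47 untreated in shDCLK1 cells, and at 7.79 ± 0.180 with LPS and 45.9 ± 0.795 untreated in control cells (interaction 2.54).

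MHC class II genes led the second kind. H2-Aa, the class II alpha chain that holds peptides for CD4 T cells, had 7.76, 8.91 and 8.05 FPKM in shDCLK1 cells with LPS and 28, 27.41 and 26.76 FPKM in untreated shDCLK1 cells. Control cells had 22.15, 22.38 and 22.99 FPKM with LPS and 13.27, 12.69 and 14.09 FPKM untreated. All 4 groups were apart from each other, with the lines in opposite order at the 2 levels (interaction -2.33, SE 0.0687, adjusted p = 1.06e-10). Its partner H2-Ab1 fell by 1.56 log2 units in shDCLK1 cells and rose by 0.69 in control cells, and H2-Eb1 fell by 0.92 in shDCLK1 cells and rose by 0.78 in control cells. H2-Ea-ps, which only its symbol marks as a pseudogene here, had the lowest interaction of the reversed genes named, -3.01 (SE 0.0987, adjusted p = 3.04e-10). Its reads may overlap with other class II genes.

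The rest of the antigen presentation list differed in form. Of its 21 measured members 18 were called lower and 1 higher, beside 16.9% of all genes lower and 32.6% higher, with a median of -0.60. The untreated level held 12, beside 15.3% of all genes. Tap1, a peptide transporter of the class I pathway, was at 150 ± 1.72 FPKM with LPS and 46.1 ± 1.07 untreated in shDCLK1 cells, and at 152 ± 3.03 with LPS and 22.3 ± 1.04 untreated in control cells (interaction -1.03). The class I gene H2-K1 had -0.37 and the class I regulator Nlrc5 -1.12. Cd74, the invariant chain that escorts class II molecules, was the 1 called higher, at 0.29, and was lower in shDCLK1 cells at both levels, with line differences of -0.31 with LPS and -0.60 untreated. H2-DMa, which loads peptides on class II, was not called (0.25).

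Outside antigen presentation the second kind held Fcgr2b, the inhibitory IgG receptor, which was at 13.8 ± 0.864 FPKM with LPS and 21.8 ± 0.998 untreated in shDCLK1 cells, and at 24.1 ± 1.80 with LPS and 11.9 ± 0.923 untreated in control cells (interaction -1.58, adjusted p = 4.27e-08). The stress-response transcription factor Atf5 was at 58.3 ± 3.25 with LPS and 89.1 ± 5.63 untreated in shDCLK1 cells, and at 104 ± 2.69 with LPS and 47.2 ± 3.47 untreated in control cells (interaction -1.73, adjusted p = 8.26e-09). Sesn2, a stress-induced inhibitor of mTORC1, fell by 0.52 log2 units in shDCLK1 cells and rose by 0.67 in control cells. The endosomal RNA sensor Tlr7 fell by 0.64 in shDCLK1 cells and rose by 0.59 in control cells. Anxa6, Cst7, Kcna3, Klf3, Ms4a6b and Snord72 were the remaining members. Snord72, a small nucleolar RNA that poly(A) selection captures poorly, was listed at 0 in shDCLK1 cells with LPS and in untreated control cells.

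Macrophage identity genes had no common direction. Of 22 measured, 10 were called higher and 9 lower, beside 32.6% of all genes higher and 16.9% lower, with a median of -0.10. Msr1, a scavenger receptor, had its interaction at the untreated level. It was at 137 ± 0.408 FPKM with LPS and 29.8 ± 0.952 untreated in shDCLK1 cells. Control cells had 147 ± 0.807 with LPS and 6.00 ± 0.553 untreated (interaction -2.24, adjusted p = 1.07e-10). Axl, a receptor for dying cells, had -1.39, and Irf8, a macrophage transcription factor, -1.05 with the interaction at the LPS level. Adgre1, which encodes F4/80, was at 55.5 ± 0.774 with LPS and 9.83 ± 0.506 untreated in shDCLK1 cells, and at 43.5 ± 1.15 with LPS and 14.4 ± 0.558 untreated in control cells (interaction 0.86). Lyz2, lysozyme with its close copy Lyz1, was higher in shDCLK1 cells at both levels, by 2.22 log2 units with LPS and by 2.71 untreated.

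Inflammatory enzymes and mediators were called lower in 15 of 22, beside 16.9% of all genes, with a median of -0.64. The 7 called higher were near the 32.6% of all genes, and 1 of them, Mmp13, passed the limit through shDCLK1 cells with LPS alone. Acod1, which makes itaconate, was at 2073.1, 2069.3 and 2086.1 FPKM in shDCLK1 cells with LPS and at 8.19, 7.50 and 9.46 FPKM in untreated shDCLK1 cells. Control cells had 2519.0, 2570.5 and 2626.5 FPKM with LPS and 1.66, 1.46 and 3.49 FPKM untreated (interaction -1.91, SE 0.236, adjusted p = 3.31e-05). The third untreated control library was higher than the others in Acod1, which widened its SE. Ptgs2, cyclooxygenase-2, had -1.19 at the LPS level and Slpi, a protease inhibitor, -1.80 at the untreated level. Odc1, which makes polyamines, was at 1618 ± 122 FPKM with LPS and 156 ± 2.06 untreated in shDCLK1 cells, and at 934 ± 6.39 with LPS and 164 ± 3.38 untreated in control cells (interaction 0.86). The heme oxygenase Hmox1 had 0.66.

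Immediate-early and AP-1 factors were called lower in 16 of 28 and higher in 6, beside 16.9% of all genes lower and 32.6% higher, with a median of -0.42. Gadd45b, a stress-induced signalling protein, was at 67.3 ± 6.01 FPKM with LPS and 8.14 ± 0.566 untreated in shDCLK1 cells, and at 109 ± 2.93 with LPS and 4.58 ± 0.233 untreated in control cells (interaction -1.40, adjusted p = 7.99e-08). Atf3, a repressor of inflammatory genes, had 43.69, 58.13 and 48.49 FPKM in shDCLK1 cells with LPS and 60.85, 59.22 and 61.43 FPKM in untreated shDCLK1 cells. Control cells had 104.07, 106.34 and 105.84 FPKM with LPS and 51.03, 48.04 and 51.47 FPKM untreated (interaction -1.33, SE 0.105, adjusted p = 6.69e-07). The response of Atf3 in shDCLK1 cells was -0.28 as deposited and 0.06 after median-of-ratios scaling. Dusp1, a phosphatase of p38 and JNK, had -1.28 at the LPS level, with 82.8 ± 0.385 FPKM in shDCLK1 cells and 202 ± 5.05 in control cells. Egr3, Ier3 and Dusp6 were the highest of the list, at 0.84, 0.83 and 0.77.

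Metabolic and housekeeping lists moved little. Respiratory chain subunits were called higher in 22 of 31 and lower in 0 as deposited, with a median of 0.18. Beside them stood 32.6% of all genes higher and 16.9% lower. After scaling by the median of ratios 4 were called higher and 1 lower, with a median of 0.08. That scaling gave 23% of all genes higher and 23.7% lower. Ribosomal proteins were called higher in 8 of 30 and lower in 0 as deposited, beside 32.6% of all genes, and in 1 in each direction after that scaling, and their median of 0.10 became -0.01 after quantile normalization. Rpl14 lost its call under median-of-ratios scaling (0.22, adjusted p = 0.0150, against 0.12, adjusted p = 0.148 when scaled). Glycolysis genes were called higher in 8 and lower in 2 of 19, near the 32.6% and 16.9% of all genes, with a median of 0.09 that became -0.00 after median-of-ratios scaling. Pfkfb3, which makes the activator of phosphofructokinase, stood out from that list at -1.25 (SE 0.102, adjusted p = 8.71e-07), with 16.9 ± 2.41 FPKM in shDCLK1 cells with LPS and 6.08 ± 0.147 in untreated shDCLK1 cells, and 56.0 ± 0.696 with LPS and 8.52 ± 0.0153 untreated in control cells. Eno1, an enolase, had 0.53.

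Cholesterol synthesis genes were called lower in 10 of 23 and higher in 2, beside 16.9% of all genes lower and 32.6% higher, with a median of -0.14. Idi1, an isomerase of the mevalonate pathway, was at 26.0 ± 0.251 FPKM with LPS and 47.3 ± 2.75 untreated in shDCLK1 cells, and at 25.9 ± 0.990 with LPS and 26.9 ± 0.791 untreated in control cells (interaction -0.79, adjusted p = 4.88e-07), a difference at the untreated level. Lysosome genes were called lower in 9 and higher in 7 of 28, beside 16.9% of all genes lower and 32.6% higher, with a median of -0.08. Grn, the lysosomal glycoprotein progranulin, had -1.24, with 389 ± 16.8 FPKM in shDCLK1 cells with LPS and 309 ± 13.2 in untreated shDCLK1 cells, and 362 ± 6.82 with LPS and 121 ± 2.74 untreated in control cells. Lipid efflux and LXR target genes were called higher in 4 and lower in 1 of 12, near the 32.6% and 16.9% of all genes, with a median of 0.02 that became -0.08 after median-of-ratios scaling and -0.03 after quantile normalization. Scd2, a fatty acid desaturase, fell by 3.44 log2 units in shDCLK1 cells and by 4.08 in control cells (interaction 0.64).

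Some strongly induced genes rose by closely similar steps in both lines. Among genes raised by at least 4 log2 units on average, the interaction was nearest 0 in Phlda1, Ifit1bl1, Dusp5 and Ikbke. Dusp5, a phosphatase of ERK, had 288.52, 281.35 and 289.05 FPKM in shDCLK1 cells with LPS and 5.78, 5.72 and 4.66 FPKM in untreated shDCLK1 cells. Control cells had 249.23, 241.61 and 242.83 FPKM with LPS and 3.97, 4.95 and 5.01 FPKM untreated. Its interaction was 0.05 (adjusted p = 0.737), with an interval of 2 SE from -0.17 to 0.26. The interval was -0.25 to 0.08 for Ikbke, an IKK-related kinase of the interferon branch, and -0.18 to 0.11 for Phlda1. Ifit1bl1, an Ifit relative with near-identical copies, had an interval of -0.21 to 0.14, yet an interaction of -1.31 (adjusted p = 0.00346) with a pseudocount of 0.1.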

How the data were processed

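Poly(A) RNA of 12 RAW264.7 libraries was sequenced as paired ends, per the labels' protocols. The authors deposited FPKM per gene. HISAT2 2.0, Bowtie 0.12.2 and StringTie 1.3.0 are named without roles, per the submitters' processing notes, beside mm9 and mm8 as builds; annotation and use of strand are not given in the sources used here. Of 18190 gene IDs, 18142 matched RefSeq, and 27 symbols turned into dates were restored. A further column, which names no sample, was not used (1 column with 18 entries).

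Genes that reached 1 FPKM in 3 or more libraries were fitted on log2(FPKM + 1) with limma 3.58.1 (R 4.3.3, trended variance, 4 group means, 12 libraries), with Benjamini-Hochberg adjustment over 11052 genes and calls at an adjusted p below 0.05. Read counts were not used here, so absolute depth is unknown. FPKM is relative to each library's total, so a change in total RNA per cell is not seen. The scripts (Python 3.11.15, numpy 2.4.6, pandas 2.3.3, matplotlib 3.10.9) were tested on simulated data.

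The comparison and the gene lists were chosen with earlier results of these data known. Genes named were Dclk1 and Ikbkb; in each direction, the 5 called genes with the largest interaction at the LPS level and at the untreated level and the 3 among reversed genes; the 5 in each direction with the largest lesser response among genes with opposite responses, also after scaling; the 2 called members of each list with the largest interaction; and the 4 nearest 0 among genes raised by at least 4 log2 units. All but the first pair needed a group mean of 5 FPKM, and predicted models were left out. Further list members and the genes with responses of at least 0.5 log2 units in opposite directions were named after their values were seen. Alternatives were a pseudocount of 0.1, no filter, a filter of 5 FPKM, median-of-ratios scaling, quantile normalization, a replicate block, leaving out each library in turn, a ratio of 3 between line differences, and responses of at least 0.5 log2 units. Some list members are not reported here by name.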

Additional observations from a re-analysis of the deposited data

Results flagged for a closer look

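Effects of LPS that differ between the lines were tested by the interaction itself (limma, 12 libraries). This holds for the 3601 genes called higher and the 1863 called lower. Among them, 111 genes rose in shDCLK1 cells and fell in control cells, and 121 fell in shDCLK1 cells and rose in control cells. Their opposite direction was a sorting by the calls of both responses, with no test of its own. After median-of-ratios scaling 18 of the 111 and 32 of the 121 were also opposite.

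Of the named genes with responses of opposite sign, Car2, Slc37a2, Cxcr3, Pkn3 and Tnfrsf23 rose in shDCLK1 cells and fell in control cells, with interactions of 3.77, 2.30, 1.65, 1.57 and 1.35 log2 units. H2-Aa, H2-Ab1, H2-Eb1, Atf5 and Fcgr2b fell in shDCLK1 cells and rose in control cells, with interactions of -2.33, -2.25, -1.70, -1.73 and -1.58. All 10 were opposite in direction after median-of-ratios scaling as well, a condition of the rule that chose them.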

How the results depend on the processing

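Leaving out each library in turn gave 3340 to 3537 genes called higher and 1725 to 1846 lower in the interaction, 1895 to 2099 at the LPS level, 1506 to 1697 at the untreated level and 831 to 924 reversed. The LPS level held 2036 genes after median-of-ratios scaling and 1676 after quantile normalization, the untreated level 1592 after median-of-ratios scaling and 1886 after quantile normalization. Requiring responses of at least 0.5 log2 units cut the genes with opposite responses to 7 that rose and 14 that fell in shDCLK1 cells, by construction. Among the genes nearest 0, the sign turned after quantile normalization in Phlda1 (0.04) and Ifit1bl1 (0.03) and after median-of-ratios scaling in Dusp5 (-0.04), none called. Leaving out single libraries gave -0.06 to 0.01 in Phlda1, -0.09 to 0.00 in Ifit1bl1 and -0.04 to 0.14 in Dusp5, none called. Ikbkb and Rpl14 lost their calls as given above; for these changes the cause was not tested. With the replicate number as a block, 3505 genes were called higher and 1791 lower. Same-numbered libraries of different groups deviated together with r = -0.107 to 0.0638 over 18 pairs, and 2 of 12 libraries correlated best with their own number, so the numbers were not taken as pairs. The libraries number 3 per group from a single clone per line, Dclk1 lies at the floor, and genes near 1 FPKM depend on the pseudocount.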
